A study of Arabidopsis thaliana with 9 samples.

Results

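Untreated inflorescences of Arabidopsis thaliana plants of the genotype 35S:AP1-GR ap1,cal were described from 3 RNA-seq libraries, out of 9 libraries in the study. In ap1 cal double mutants flowers are not established, and the shoot apex makes a mass of inflorescence-like meristems that resembles a small cauliflower. Plants were 5 weeks old and grew in soil at 22 °C in long days. All 3 groups of the study carried the same mutations and the same transgene, in which the constitutive 35S promoter drives a fusion of the MADS-domain factor APETALA1 (AP1) to the hormone-binding domain of the glucocorticoid receptor (GR). The second group received cycloheximide, an inhibitor of translation elongation, for 2 h, and the third received dexamethasone, which activates the fusion, together with cycloheximide for 2 h. Whole inflorescences were collected, so the libraries hold stem and organ tissue beside meristems, and no wild-type or other plants were part of the data used here. The loci described were those of at least 300 bp, counted from start to end with introns, that had the quantification status OK in all 3 untreated libraries. They numbered 31266 of 33871 loci. At the length limit, 14 loci of 300 bp had a mean FPKM of 0 to 170.3, and the single locus of 299 bp had 0.372. FPKM, fragments scaled to transcript length and library size, is a level scaled for length and can be compared between genes.

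The shoot apical meristem is a group of dividing cells that renews itself and gives off organs at its flanks. WUSCHEL (WUS), made in an organizing centre, maintains the stem cells above it, and the stem cells secrete the peptide CLAVATA3 (CLV3), which limits WUS through receptor kinases. KNOX homeodomain proteins keep cells undifferentiated, TERMINAL FLOWER 1 (TFL1) keeps the inflorescence meristem indeterminate, and LEAFY (LFY), AP1 and CAULIFLOWER (CAL) turn new meristems into flowers.

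A level of at least 1 FPKM in each of the 3 libraries, called expressed below, was reached by 17598 loci, 56.3% of those described. Of these, 12130 had at least 10 FPKM, 1437 at least 100 and 96 at least 1000 in each library, and the median of the expressed loci was 20.18 FPKM. A total of 7576 loci were listed at 0 in all 3 libraries. Among loci that cover a single protein-coding gene, 15884 of 24313 were expressed (65.3%), and among loci of single annotated pseudogenes 58 of 3816 (1.52%). Another 234 expressed loci covered no reference gene, 874 covered several genes and 123 lay antisense to a gene. Whether the libraries keep the strand was not settled by the labels, so values of antisense and overlapping loci are uncertain.

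No total read count was at hand, and absolute depth is unknown. Steps between the FPKM values of short loci of equal length gave a rough estimate of relative depth. It was 0.49, 1 and 0.627 for replicates 1, 2 and 3. Such steps also depend on the scaling between libraries, which is not stated, so which library had the most reads is not settled. Over the expressed loci, log2(FPKM + 1) correlated with r of 0.99 between replicates 1 and 2, 0.979 between 1 and 3 and 0.985 between 2 and 3. The median absolute log2 difference was 0.09 for replicates 1 and 2, 0.15 for 1 and 3 and 0.12 for 2 and 3. Replicate 3 was thus the farthest from both others. Its values also lay slightly lower as a whole. The median log2 difference was -0.057 for replicate 3 minus 1 and -0.042 for 3 minus 2. Counts of genes lowest in replicate 3, given below, hold this shift. The labels call the libraries biological replicates without naming separate cultures, so the spread may be partly technical.

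The coefficient of variation (CV, SD as a percentage of the mean) had a median of 7.94% over the 17970 loci with a mean of at least 1 FPKM. Without replicate 3 this median was 5.05%. It fell from 16.2% at 1 to 3 FPKM to 6.7% at 30 to 100 FPKM, and was 17.4% over the 129 loci above 1000 FPKM. Short loci varied more. The median CV was 22.1% for 532 loci of 300 to 600 bp and 6.7% for 7968 loci of 2000 to 4000 bp. The authors also deposited an interval for each value, whose larger half-width over the 3 libraries had a median of 63.5% of FPKM over expressed loci. In 436 expressed loci (2.48%) the half-width fell outside 0.3 to 2 times FPKM in a library, and these made up 75 of the 129 loci above 1000 FPKM. Within that range of half-widths, a bound chosen after seeing the data, the median CV above 1000 FPKM was 9.37%.

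**Figure D1:**
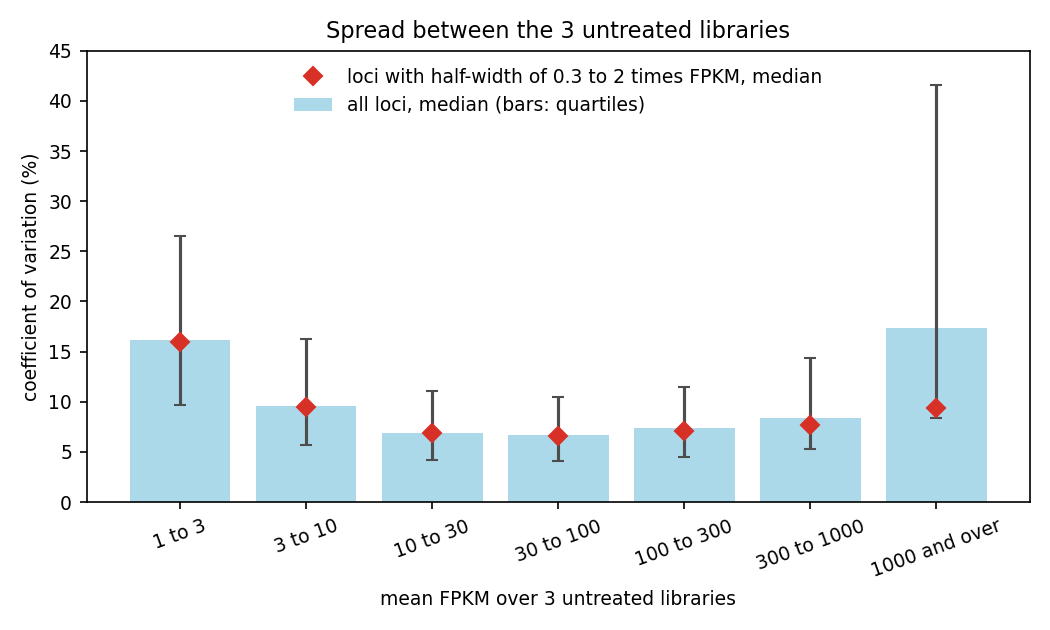
Median coefficient of variation (%) between the 3 untreated libraries by mean FPKM, for all loci (columns, with quartiles as error bars) and for loci with a deposited half-width of 0.3 to 2 times FPKM (diamonds). The median falls from 16.2% at 1 to 3 FPKM to 6.7% at 30 to 100 FPKM, and above 1000 FPKM it is 17.4% for all loci and 9.37% for those with such intervals.

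The genes of the WUS and CLV3 circuit were all expressed, 22 of 22, with a median of 24.7 FPKM. Over all 29240 loci that cover 1 gene, 16201 were expressed (55.4%) and the median was 3.36 FPKM. WUS (AT2G17950, chromosome 2, 7808871 to 7810795), the homeodomain factor of the organizing centre, had 6.69, 7.75 and 6.18 FPKM in replicates 1, 2 and 3. CLV3, its peptide antagonist, had 17.5, 13.5 and 13.9 FPKM. Both lay low within the list, and in all 3 libraries CLV3 was above WUS. In whole tissue, few cells with much RNA and many cells with little cannot be told apart, so these levels say nothing of the level per cell.

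The receptors spanned levels on both sides of CLV3. CLV1, the receptor kinase that binds CLV3, had 22.4, 23.5 and 24.3 FPKM, while its relative BAM1 had 78.1, 85.1 and 105 FPKM. A further relative, BAM3, had 69.7, 61.4 and 60.5 FPKM. BAM2 had 10.4, 11.5 and 11.9 FPKM, below CLV3 in every library, and RPK2, a further receptor kinase, 13.5, 14.01 and 18.3 FPKM. The receptor protein CLV2 had a mean of 10.1 ± 0.421 FPKM (SD, n = 3), and CRN, the membrane partner of CLV2, 38.7 ± 4.49 FPKM. BAM1 was highest in replicate 3, and the ranges of BAM1, CLV1 and CLV2 did not overlap. The ERECTA receptor kinases, which act in meristem size and organ growth, led the list. ER had 455, 450.5 and 454 FPKM, with a CV of 0.502%, and ERL2 had 305, 264 and 267 FPKM, while ERL1 had a mean of 37.5 FPKM.

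AGO10, an ARGONAUTE protein that sequesters miR165 and miR166 in the meristem, had 294, 268 and 221 FPKM. It was lowest in replicate 3. The HAIRY MERISTEM factors HAM1, HAM2 and HAM3, which act as partners of WUS, had means of 35.8 ± 2.12, 26.1 ± 1.58 and 17.04 ± 0.769 FPKM (SD, n = 3). Among other WUS-related homeobox genes, WOX9 had a mean of 31.1 FPKM, WOX4, which acts in the cambium, 9.696, and WOX3, which acts at organ margins, 5.73, the lowest value of the list.

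KNOX genes and their BELL partners, homeodomain factors that bind DNA as pairs, were expressed in 20 of 22 cases. SHOOT MERISTEMLESS (STM, AT1G62360, chromosome 1, 23058582 to 23061722), which prevents differentiation in the meristem, had 148, 149 and 145 FPKM, and its libraries differed little (CV 1.57%). KNAT1, known as BREVIPEDICELLUS, had 131, 115 and 105 FPKM. The ranges of STM and KNAT1 did not overlap. KNAT6 had 43.1, 43.3 and 43.6 FPKM and KNAT2 38.8, 41.5 and 42.2 FPKM, and KNAT6 lay above KNAT2 without overlap. The class II genes KNAT3, KNAT4 and KNAT5 had means of 43.8, 35.2 and 25.1 FPKM, and KNAT7, known from secondary cell walls, had 0.442, 0.646 and 0.601 FPKM and was below 1 FPKM in every library.

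Of the BELL genes, BLH9 (PENNYWISE) and BLH8 (POUND-FOOLISH), which act with KNOX proteins in inflorescence growth, were the highest. BLH8 had 69.97, 63.03 and 59.4 FPKM and BLH9 59.1, 59.7 and 54.9 FPKM, with overlapping ranges. BLH5 varied most among the members with at least 5 FPKM, at 28.9, 21.02 and 13.97 FPKM (CV 35.1%). BEL1, required for ovule integuments, had 3.56, 3.41 and 3.12 FPKM, and BLH6, BLH4 and BLH2 had means of 3.27, 1.81 and 1.39 FPKM. BLH11 had 1.03, 0.726 and 0.721 FPKM, above 1 FPKM in replicate 1 and below it in the others. The remaining members, KNATM, ATH1, BLH1, BLH3, BLH7 and BLH10, had means of 14.97 to 28.9 FPKM.

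Inflorescence identity and flowering time genes covered a wide range of levels. The median over 23 members was 7.22 FPKM, and 17 were expressed, with 7 at 100 FPKM or more. TFL1 (AT5G03840, chromosome 5, 1024551 to 1025852) had 156, 157 and 136 FPKM, lowest in replicate 3. FD, a bZIP factor that acts with TFL1 and with the flowering signal FT, had 231, 239.7 and 230.2 FPKM, and its paralog FDP 145, 143 and 156 FPKM. The MADS-box gene SOC1, a floral integrator, had 462, 419 and 398 FPKM, and its relative AGL42 had 445, 491 and 523 FPKM. SOC1 was highest in replicate 1 and AGL42 in replicate 3, and the ranges of both overlapped. Further relatives of SOC1, AGL71 and AGL72, had means of 184 ± 5.34 and 55.8 ± 4.01 FPKM (SD, n = 3).

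FUL, a MADS-box gene close to AP1 and CAL that acts in inflorescences, had 231, 226 and 244 FPKM. SVP, a MADS-box factor that acts in flowering time and in early floral meristems, had 111, 101.4 and 99.5 FPKM. AGL24, which acts in the same processes, had 67.7, 69.3 and 68.3 FPKM. FLM, a repressor of flowering, had a mean of 88.3 ± 3.799 FPKM (SD, n = 3). The florigen gene FT had 2.02, 3.53 and 1.26 FPKM, and CO, its activator in leaves, 2.39, 2.55 and 2.65 FPKM. FLC, the repressor that cold silences, had 0.223, 0.132 and 0.0349 FPKM, TSF and AGL17 were listed at 0 in all 3 libraries, and AGL14 had 0.129 FPKM in replicate 2 and 0 in the others. FT, CO and FLC stayed under 4 FPKM in each library. Between these and the abundant members lay MAF5 and MAF4, relatives of FLC, MFT, a relative of TFL1 and FT, and AGL19, with means of 7.22, 6.77, 4.27 and 2.76 FPKM.

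All 15 listed SPL genes were expressed, and each had at least 10 FPKM in every library. Many members of this family, but not all, are targets of miR156 and act in the age pathway of flowering. SPL4 (AT1G53160, chromosome 1, 19806222 to 19807693) had 618, 501 and 432 FPKM, highest in replicate 1 and lowest in replicate 3, and did not overlap any other member. SPL8, which is not a target of miR156 and acts in anthers and shoots, had 125, 114 and 125 FPKM. SPL3, a close relative of SPL4, had 89.7, 80.2 and 71.7 FPKM. SPL5, also a close relative, had 87.7, 80.2 and 74.2 FPKM, and both overlapped. SPL12 and SPL1, large members, had means of 87.1 ± 10.8 and 61.7 ± 0.348 FPKM (SD, n = 3). SPL9 and SPL15, which act at the shoot apex, had means of 33.8 and 18.6 FPKM, SPL6 had 16.1 FPKM and SPL2, the lowest member, 14.7 FPKM. SPL7, SPL10, SPL11, SPL14 and AT1G76580 lay between, at 23.7 to 40.96 FPKM.

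Floral identity and organ genes were led by AP1 (AT1G69120, chromosome 1, 25982330 to 25986313), at 1098, 1183 and 1379.9 FPKM. The transgene and the mutated gene are not separated in this value. AP1 stood at the 99.7 percentile of all single-gene loci, and CAL, the other mutated gene, had 74.9, 66.7 and 62.98 FPKM. LFY, the factor that specifies the floral meristem, had 22.2, 20.8 and 19.0003 FPKM, and UFO, an F-box protein that acts with LFY, 10.2, 10.95 and 9.31 FPKM. MYB17, which acts downstream of LFY, had 107, 107 and 109 FPKM, and the homeodomain gene LMI1 a mean of 9.203 ± 1.06 FPKM (SD, n = 3). The CVs of LFY and UFO were 7.804% and 8.13%.

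The 4 SEPALLATA genes, MADS-box partners in every floral whorl, spanned 12.5 to 87.6 FPKM. SEP2 had 85.5, 92.3 and 84.9 FPKM, SEP4 58.8, 59.8 and 55.6 FPKM, SEP3 18.9, 16.5 and 9.95 FPKM and SEP1 10.98, 12.6 and 13.99 FPKM. SEP2 lay above SEP4 in every library, and SEP3 and SEP1 overlapped, SEP3 being lowest and SEP1 highest in replicate 3. Among the genes of petal and stamen identity, PI had 37.8, 43.5 and 42.3 FPKM but its obligate partner AP3 only 3.89, 4.89 and 5.19 FPKM. AG, which specifies stamens and carpels, had 1.15, 1.82 and 2.02 FPKM, and its relatives SHP1, SHP2 and STK means of 2.27, 0.332 and 0.08901 FPKM. AGL6, a relative of the SEPALLATA genes, had 37.7, 38.8 and 35.3 FPKM, while AGL13 was listed at 0 in all 3 libraries.

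The regulators that act in several tissues, SPT, a bHLH factor, and LUG and SEU, a corepressor pair, had means of 80.7 ± 6.72, 61.6 ± 4.84 and 46.2 ± 2.85 FPKM (SD, n = 3). PAN, a bZIP factor of floral organ number, had 49.6 FPKM, AP2 22.8 FPKM and PTL, which acts between sepals, 6.93 FPKM. CRC, of the YABBY family and known from carpels and nectaries, had 5.27, 4.75 and 4.13 FPKM. HEC1, HEC2, HEC3, SUP, NZZ and RBE, which act later in flowers, had means of 0.04003 to 0.241 FPKM, and JAG, an organ growth factor, 0.415 FPKM. In all, 23 of 33 members were expressed and 10 were below 1 FPKM in every library.

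**Figure D2:**
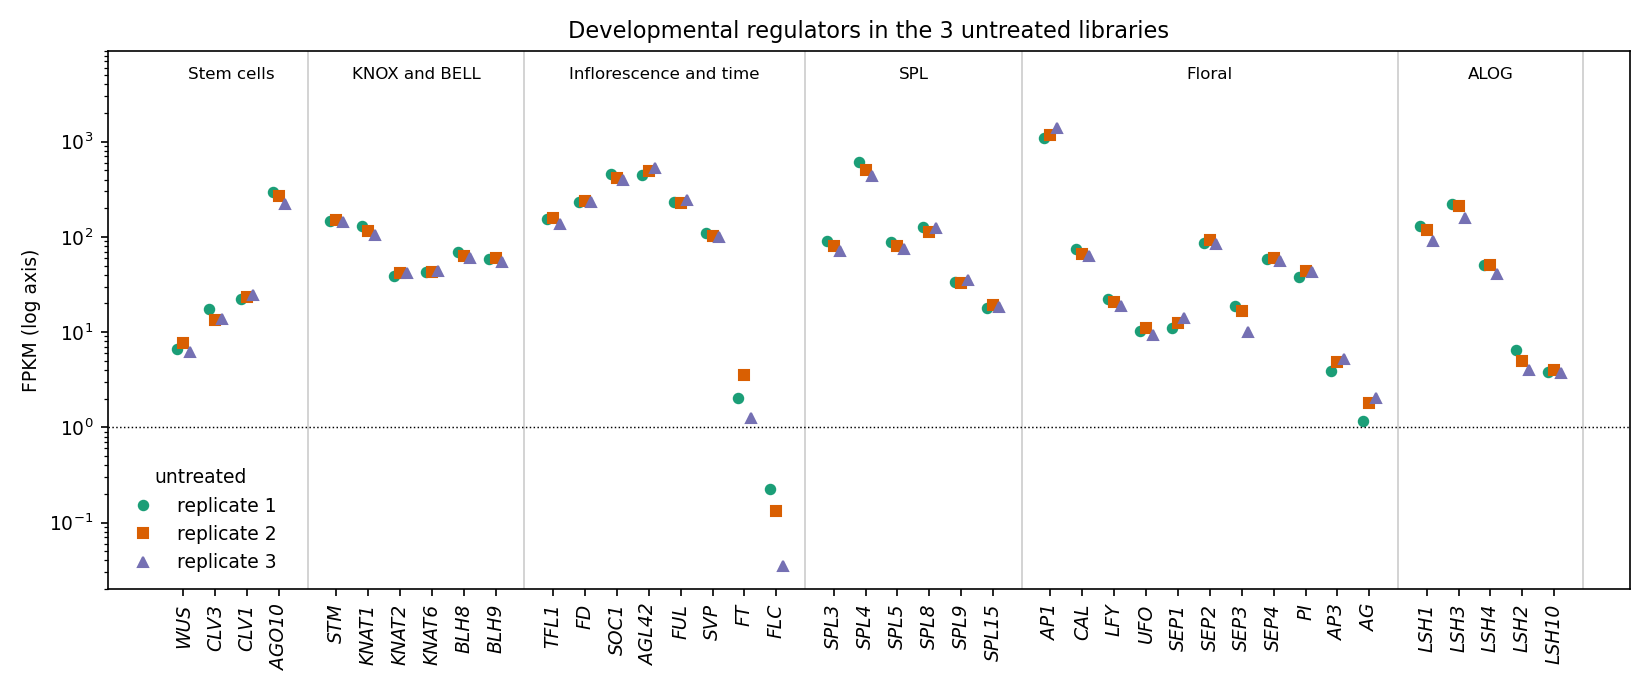
FPKM (log axis) of 40 developmental regulators in untreated replicates 1, 2 and 3, by group, with a dotted line at 1 FPKM. AP1 lies above 1000 FPKM in all 3 libraries, SOC1, AGL42 and SPL4 lie above 300, and FLC lies below the line.

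Organ boundary and initiation genes were mostly expressed, 15 of 16, at a median of 10.5 FPKM. Among the NAC genes that separate organs, CUC3 had 45.6, 42.8 and 29.2 FPKM. CUC1 had 28.02, 28.8 and 23.4 FPKM and CUC2 had 17.7, 17.3 and 15.9 FPKM. All 3 were lowest in replicate 3. The MYB genes RAX1, RAX2 and RAX3, known from axillary meristems, had means of 33.5 ± 0.902, 20.7 ± 5.21 and 3.48 ± 0.9398 FPKM (SD, n = 3), and the MYB gene LOF1 had 33.3 FPKM against 0.663 for LOF2. BOP2 had 30.5, 32.8 and 33.8 FPKM and its paralog BOP1 7.72, 6.98 and 6.65 FPKM, so BOP2 was higher in each library. DRN and DRNL, AP2-type factors of organ initiation, had means of 10.4 and 6.23 FPKM. Of the 16 members, 14 were lowest in replicate 3, against 9780 of all 29240 single-gene loci, of which 7406 were at 0.

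Among the ALOG genes, nuclear proteins named for LSH1 and a rice gene, only 3 of the 8 with a locus of their own exceeded 10 FPKM. LSH3 (AT2G31160, chromosome 2, 13277663 to 13279087), known from organ boundaries, had 223, 210.3 and 157 FPKM, LSH1 129, 118 and 90.3 FPKM and LSH4, the second boundary member, 51.2, 50.6 and 40.5 FPKM. LSH2 had 6.52, 4.92 and 4.01 FPKM and LSH10 had 3.804, 3.95 and 3.73 FPKM. These 5 ranges did not overlap, and LSH1, LSH2, LSH3 and LSH4 were all lowest in replicate 3. LSH6, LSH8 and LSH7 had means of 0.657, 0.211 and 0.0829 FPKM. LSH5 and LSH9 shared a locus with another gene and were given no value.

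Polarity genes of both organ sides were present, with 21 of 22 expressed. On the lower side, YAB1 had 211, 193 and 167 FPKM, KAN1 a mean of 48.7 ± 3.58 FPKM and KAN2 53.9 ± 11.9 FPKM (SD, n = 3). The auxin response factors ARF2, ETT and ARF4 had means of 145, 97.2 and 63.8 FPKM. On the upper side, the class III homeodomain genes REV, PHB and PHV and their relative ATHB-15 had means of 46.5, 38.3, 38.1 and 37.9 FPKM, and HB-8, the vascular member, 11.5 FPKM. AS1, a MYB factor of leaf fate, had 84.8, 74.2 and 66.4 FPKM, while its partner AS2 had 2.295, 2.03 and 1.86 FPKM. INO and ATS, known from ovules, had means of 3.52 and 0.975 FPKM.

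In the AINTEGUMENTA family of AP2-type growth factors, 4 of 8 members were expressed. ANT had 97.02, 100.9 and 114 FPKM, AIL6 42.4, 41.4 and 37.6 FPKM, AIL7 33.2, 33.1 and 28.5 FPKM and AIL5 15.2, 12.8 and 9.804 FPKM, in that order without overlap. The root and embryo members were near or at 0: PLT1 and PLT2 were listed at 0 in all 3 libraries, BBM had at most 0.011 FPKM and AT1G72570 at most 0.00894 FPKM. The coactivator AN3 (AT5G28640, chromosome 5, 10647464 to 10649892), which binds GRF growth factors, had 335, 286 and 277 FPKM. GRF5 had 134, 112 and 103 FPKM, GRF3, GRF1 and GRF7 had means of 81.2, 60.4 and 55.97 FPKM, and GRF8 had 3.88. The coactivator GIF2 had 87.8, 84.7 and 81.99 FPKM and GIF3 8.08, 9.48 and 29.4 FPKM, so that GIF3 was over 3 times higher in replicate 3 than in either other library. The class II TCP genes of the group that restrains growth in leaves were unequal. TCP24, TCP2 and TCP10 had means of 28.4, 13.1 and 12.3 FPKM, while TCP3, TCP4, TCP5, TCP13 and TCP17 had 0.205 to 2.75 FPKM. The class I gene TCP15 had 52.2 FPKM.

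Cell division genes were broadly expressed, 29 of 31 cyclins and cyclin-dependent kinases (CDKs) and 10 of 10 genes of mitosis and cytokinesis. The D-type cyclin CYCD3;1 (AT4G34160, chromosome 4, 16357639 to 16359555), which drives entry into the cycle downstream of cytokinin, had 152, 152 and 163 FPKM, and CYCD3;3 95.03, 91.4 and 92.4 FPKM. The mitotic kinase CDKB2;1 had 118, 128 and 118 FPKM, higher than its paralog CDKB2;2 with a mean of 50.7 FPKM. CDKA;1, the kinase of all phases, had 65.2, 66.6 and 73.9 FPKM. Spread was small, with a median CV of 5.01% over the expressed members, against 7.64% over all expressed single-gene loci.

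The mitotic cyclins CYCB1;1, CYCB1;2, CYCB1;3 and CYCB1;4 had means of 30.7, 58.5, 15.9 and 25.4 FPKM, and CYCA2;3 had 51.9 FPKM. CYCD4;2 had 3.91 FPKM, CYCD7;1, known from stomata, 0.0308, 0.122 and 0.0246 FPKM and CYCA3;3, known from meiosis, was listed at 0 in all 3 libraries. KN, the syntaxin of the forming cell plate, had 153, 137 and 142 FPKM. CDC20.1, the activator of the anaphase complex, was lower in every library, at 73.8, 71.2 and 74.9 FPKM. The Aurora kinases AUR1, AUR2 and AUR3 had means of 48.98 ± 1.56, 40.9 ± 1.86 and 21.1 ± 0.407 FPKM (SD, n = 3), and the spindle factor TPX2 58.5 FPKM. The kinesin HIK and the microtubule bundler PLE of the phragmoplast had means of 35.4 and 39.4 FPKM.

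The list of CDK inhibitors, the retinoblastoma protein and E2F, DP and related cell cycle regulators was expressed in all 24 members, at a median of 15.8 FPKM. KRP3, an inhibitor of CDKs, had 75.3, 66.2 and 64.7 FPKM. Its relative KRP2 had 63.8, 60.04 and 43.1 FPKM, lowest in replicate 3, and KRP1 a mean of 2.97 FPKM. RBR1, the retinoblastoma protein, had 51.5, 47.9 and 47.7 FPKM. SMR4 and SMR5, inhibitors tied to endoreduplication and stress, had means of 2.005 and 3.97 FPKM, and SIM, their relative, 17.4 FPKM.

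All 16 replication genes with a locus of their own were expressed, and 11 had at least 10 FPKM in each library. TSO2, a small subunit of ribonucleotide reductase, had 68.5, 73.4 and 60.4 FPKM, and the sliding clamp PCNA1 had 69.8, 62.8 and 55.7 FPKM. Its paralog PCNA2 had 50.3, 48.3 and 45.9 FPKM. The helicase subunits MCM2 to MCM6 lay close together, with means of 25.7 (MCM6) to 40.4 (MCM3) FPKM and a CV of 0.619% for MCM2. The loading factor CDT1A had 36.1, 39.3 and 38.5 FPKM, within the range of the MCM means. Other origin and loading factors were lower, with ORC2 at 5.899, 5.401 and 4.49 FPKM, CDC6 at 4.73, 4.75 and 3.95 FPKM and ORC1A at 1.304, 1.74 and 1.58 FPKM. Summed over the list, replication genes differed by 0.24% (CV) between the libraries, but opposite shifts of members cancel in a sum. The members had a median CV of 6.95%, up to 14.9%, against 7.64% over all expressed single-gene loci.

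The chosen histone genes were among the lists of highest median. Of 40 with a locus of their own 38 were expressed, 25 at 100 FPKM or more, and the median was 172 FPKM. The 4 genes that the reference names as H3.1, the form deposited at replication, summed to 1746, 1844 and 1611 FPKM, and the 3 of H3.3, the form deposited throughout the cycle, to 2314, 2330 and 2176 FPKM. Over these genes the H3.3 sum was higher in every library. Only genes with a locus of their own entered the sums, as 40 of 44 listed histone genes had. Further genes of either form may thus be missing from them. AT1G09200 (H3.1) had 1024, 1071 and 988 FPKM, and AT4G40040 (H3.3) had 970.5, 953 and 873 FPKM. AT4G40030 (H3.3) had 917, 949 and 909 FPKM. HTB4, an H2B gene, had a mean of 585 ± 30.9 FPKM (SD, n = 3), the H2A.Z genes HTA8, HTA9 and HTA11 means of 83.6, 174 and 166 FPKM, and HTR12, the centromeric H3, 51.2, 49.4 and 45.2 FPKM. HTA4 was listed at 0. Histone copies are nearly identical in places, so reads could be split between them and the single values are less certain than the sums. Of the 40 histone genes, of which 1 was at 0, 29 were lowest in replicate 3. Over all 29240 single-gene loci, of which 7406 were at 0, this held for 9780.

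The 250 bases before the RefSeq start (TAIR10.1) of 24313 protein-coding genes with a locus of their own were searched on both strands for short motifs known from such genes. These windows are called promoters below. Of them 18003 were clear of any annotated gene. The shares use all windows, and only the printed sequences were limited to clear ones. Of the 40 histone promoters 10 (25%) held the octamer CGCGGATC, against 0.144% of all 24313. They included 3 of the 4 H3.1 genes and 1 of the 3 H3.3 genes, so the octamer was not limited to H3.1. The promoters of the most abundant H3.1 genes are shown because they carry it, in capitals.
AT1G09200: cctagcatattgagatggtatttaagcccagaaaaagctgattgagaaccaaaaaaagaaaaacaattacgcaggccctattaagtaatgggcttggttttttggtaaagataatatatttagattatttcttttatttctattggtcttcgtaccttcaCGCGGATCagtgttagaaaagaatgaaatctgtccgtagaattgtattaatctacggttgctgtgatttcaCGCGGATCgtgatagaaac
AT5G65360: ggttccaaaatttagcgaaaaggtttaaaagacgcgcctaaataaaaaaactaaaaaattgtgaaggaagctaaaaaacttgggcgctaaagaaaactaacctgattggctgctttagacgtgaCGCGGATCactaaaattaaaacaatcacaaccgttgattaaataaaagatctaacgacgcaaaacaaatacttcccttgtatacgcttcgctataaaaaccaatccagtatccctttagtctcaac
The first lies at chr1:2972335-2972584, minus strand, and holds 2 copies, the nearer ending 12 bases before the start. The second lies at chr5:26120582-26120831, minus strand, and holds 1 copy that ends 119 bases before it.

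The chosen ribosomal protein genes had the highest median of the lists, 512 FPKM. All 23 with a locus of their own were expressed, 22 at 100 FPKM or more. They are a part of the family and do not give its level. Of 318 genes whose product names a ribosomal protein, 175 had a mean of at least 100 FPKM. RS27A had 1367, 1872 and 1272 FPKM, RPL23AA 1399, 1463 and 1306 FPKM and RPS13A 1095, 1035 and 926 FPKM. RPS5A, whose promoter is used to drive genes in dividing tissue, had 756, 791 and 688 FPKM. Its paralog RPS5B had 238, 249 and 232 FPKM, below RPS5A in every library. RPL16A, the lowest of the list, had 67.4, 57.3 and 54.6 FPKM. Replicate 3 was the lowest library for 19 of the 23 genes, against 9780 of all 29240 single-gene loci, 7406 of these at 0. The motif TGGGCC, known as site II, stood in 12 of 23 promoters of this list (52.2%), in 149 of 318 of all genes whose product names a ribosomal protein (46.9%), and in 10 of 16 of the replication list (62.5%), against 14.1% of all promoters. The telo box AAACCCTA stood in 51 of the 318 (16.0%) and in 4.49% of all.

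The share of promoters with TGGGCC rose with the level in these libraries, from 6.6% below 1 FPKM through 18.2% at 10 to 30 FPKM to 32.5% at 300 FPKM and above. That last share was 34.4% for loci with half-widths of 0.3 to 2 times FPKM. This is a description across genes, which share base composition and gene families, and a match does not show a site. The promoters of 2 ribosomal protein genes and of RNR1, the large subunit of ribonucleotide reductase with 36.1, 40.8 and 48.5 FPKM, show either motif in capitals, GGCCCA being TGGGCC on the other strand.
RPS6A: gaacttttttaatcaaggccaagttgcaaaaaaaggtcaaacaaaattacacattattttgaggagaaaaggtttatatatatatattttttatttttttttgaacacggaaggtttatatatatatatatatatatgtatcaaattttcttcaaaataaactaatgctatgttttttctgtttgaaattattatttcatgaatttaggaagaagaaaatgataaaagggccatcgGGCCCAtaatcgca
EMB2296: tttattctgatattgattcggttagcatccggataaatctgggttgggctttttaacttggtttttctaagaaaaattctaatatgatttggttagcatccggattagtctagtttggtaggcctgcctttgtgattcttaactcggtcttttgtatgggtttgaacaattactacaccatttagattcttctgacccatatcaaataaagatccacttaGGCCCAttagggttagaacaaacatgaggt
RNR1: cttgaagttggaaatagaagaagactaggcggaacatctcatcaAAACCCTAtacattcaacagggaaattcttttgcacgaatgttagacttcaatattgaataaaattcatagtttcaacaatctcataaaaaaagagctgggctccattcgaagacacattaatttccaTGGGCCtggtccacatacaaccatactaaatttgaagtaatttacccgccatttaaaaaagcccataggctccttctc
These lie at chr4:15347805-15348054, minus strand, at chr2:7836817-7837066, plus strand and at chr2:9293011-9293260, plus strand. RPS6A had 928, 884 and 904 FPKM and EMB2296, a protein of the large subunit, 594, 612 and 548 FPKM, and their motif ends 9 and 25 bases before the start. RNR1 holds both motifs farther away, ending 73 and 199 bases before it.

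Auxin genes were expressed in 15 of 18 cases. MP, the auxin response factor of organ initiation, had 202, 186 and 178 FPKM, the receptor TIR1 83.2, 84.7 and 86.6 FPKM and the influx carrier AUX1 63.98, 79.6 and 72.5 FPKM. The kinase PID, a regulator of auxin transport, had 44.1, 44.7 and 42.8 FPKM. The efflux carriers PIN7, PIN3 and PIN4 had means of 12.7, 5.78 and 1.64 FPKM, and PIN2, known from roots, 0.0547 FPKM. The biosynthesis gene YUC4 had 1827, 7196 and 3.398 FPKM, and a deposited half-width outside 0.3 to 2 times FPKM, so its values cannot be taken as a level. YUC1, YUC6 and YUC2 of the same family had means of 2.74, 1.01 and 0.365 FPKM, and TAR2 and TAA1 17.9 and 5.65 FPKM.

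Of the cytokinin genes 19 of 24 were expressed. The activating enzyme LOG5 had 338, 341 and 281 FPKM, LOG4, known from the outer cell layer of the meristem, a mean of 46.3 ± 2.77 FPKM and LOG7 13.1 ± 1.33 FPKM (SD, n = 3). LOG3 had 2.65, 1288 and 343 FPKM, with intervals as unusual as those of YUC4. Type A response regulators, which WUS represses in part, were unequal. ARR7 had 69.98, 55.7 and 55.01 FPKM, while ARR5, ARR6 and ARR15 had means of 4.84, 6.18 and 4.64 FPKM. The type B factor ARR1 had 109, 95.6 and 99.1 FPKM and the receptor WOL 27.6, 26.5 and 30.9 FPKM. CKX3 and CKX5, oxidases that break cytokinin down in the meristem, had means of 1.23 and 0.968 FPKM.

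For gibberellin, 12 of 17 members were expressed. GA2OX2, an enzyme that inactivates the hormone, led with 64.6, 66.5 and 77.1 FPKM, followed by the receptor GID1A with 52.7, 55.9 and 52.6 FPKM and the DELLA repressor RGA1 with 33.6, 30.3 and 34.7 FPKM. The synthesis genes GA20OX2 and GA20OX1 had means of 24.5 ± 3.45 and 9.85 ± 2.82 FPKM (SD, n = 3), while GA3OX1, the last step, had 0.832, 0.979 and 0.727 FPKM. GA2OX7 was listed at 0 and GA2OX1, GA2OX6 and GA2OX8 had means of 0.0611 to 0.314 FPKM.

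Of 11 clock genes 10 were expressed, and their levels were unequal. ELF3 had 346, 199 and 365 FPKM, TOC1 84.2, 88.4 and 125 FPKM and PRR7 87.1, 86.6 and 81.1 FPKM. PRR5 had 48.04, 46.7 and 42.5 FPKM, while CCA1 had 2.22, 2.304 and 2.44 FPKM. LHY had 1.57, 1.52 and 1.73 FPKM and PRR9 had 0.808, 0.896 and 0.7601 FPKM. The time of collection was not given in the labels. ELF3 was lowest in replicate 2 and TOC1 highest in replicate 3, whereas CCA1 and LHY each varied by a CV of 4.83% and 6.67%.

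All 17 chromatin and small RNA genes with a locus of their own were expressed. AGO1, the main effector of microRNAs, had 252, 233 and 220.0 FPKM and AGO4, of DNA methylation, 107, 114 and 127 FPKM. The DNA methyltransferases MET1, CMT3 and DRM2 had means of 29.1 ± 2.15, 27.8 ± 2.11 and 16.8 ± 1.29 FPKM (SD, n = 3), and DDM1, a remodeller, 59.1 FPKM. Of the Polycomb group, CLF, SWN, EMF2, FIE and MSI1 had means of 18.3, 39.6, 39.98, 19.7 and 68.3 FPKM. AGO5 and AGO9, known from reproductive tissue, had 3.42 and 2.87 FPKM.

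Marker lists of other tissues were used to check the tissue label. All 21 photosynthesis genes were expressed, at a median of 238 FPKM, led by RBCS1A with 3184, 3154 and 2898 FPKM. The half-width of RBCS1A reached 2.16 times FPKM, outside the range given above, so it is uncertain as a level. Next came CAB1 with 1031, 945 and 1030.5 FPKM and PSBO1 with 627, 661 and 647 FPKM. RBCS and LHCB copies share sequence, so single members are uncertain. Epidermal genes were expressed in 9 of 10 cases, with LTP1 at 1192, 1346 and 928 FPKM, PDF1 at 1139.7, 1272 and 1260.0 FPKM, with a half-width of up to 2.04 times FPKM and thus the same uncertainty, and the layer 1 factors ATML1 and PDF2 at means of 42.7 ± 4.96 and 94.02 ± 7.54 FPKM (SD, n = 3). ALE1 was listed at 0. Vascular markers were low, with SUC2 of the phloem at 26.6, 27.7 and 24.999 FPKM and the secondary wall genes CESA4, CESA7 and CESA8 at means of 2.48, 2.24 and 1.77 FPKM. Of 8 stomatal genes 5 were expressed, led by ICE1 with a mean of 38.4 FPKM, while SPCH and FMA had 4.78 and 5.996 FPKM. Of 6 trichome genes 5 were expressed, led by TTG1 with a mean of 83.6 FPKM, while GL1 and GL3 had 2.17 and 1.03 FPKM.

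None of 12 seed markers was expressed, LEC1, ABI3, SESA4, CRB and CRU3 being listed at 0, and SESA1 had 2.05, 2.33 and 0.857 FPKM. Of 8 root markers RHD6, EXPA18 and RSL4 were listed at 0. BGLU23, known from roots and seedlings, had 157, 90.5 and 113 FPKM, and WOX5, the root stem cell gene, 12.6, 6.64 and 3.496 FPKM. Of 15 anther and pollen markers 4 were expressed. EMS1, TPD1 and SDS, which act early in anthers or in meiosis, had means of 18.4, 8.03 and 16.2 FPKM, the pollen genes VGD1 and GRP17 were below 0.02 FPKM and MS1 was listed at 0. The tapetum gene AT5G07230 had 2.02, 3.28 and 6.37 FPKM and MEE48 had 0.2899, 0.902 and 3.06 FPKM. LAP5 had 0.226, 0.204 and 2.28 FPKM and CYP703A2 had 0, 0.0419 and 0.952 FPKM. These 4 genes were highest in replicate 3. The summed level of the list was 57.1, 43.5 and 51.6 FPKM. Of the actin genes, the vegetative ACT7, ACT8 and ACT2 had means of 278 ± 16.5, 120.3 ± 11.6 and 109.8 ± 7.402 FPKM (SD, n = 3), and the pollen genes ACT4 and ACT12 0.0488 and 0.00408 FPKM.

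**Figure D3:**
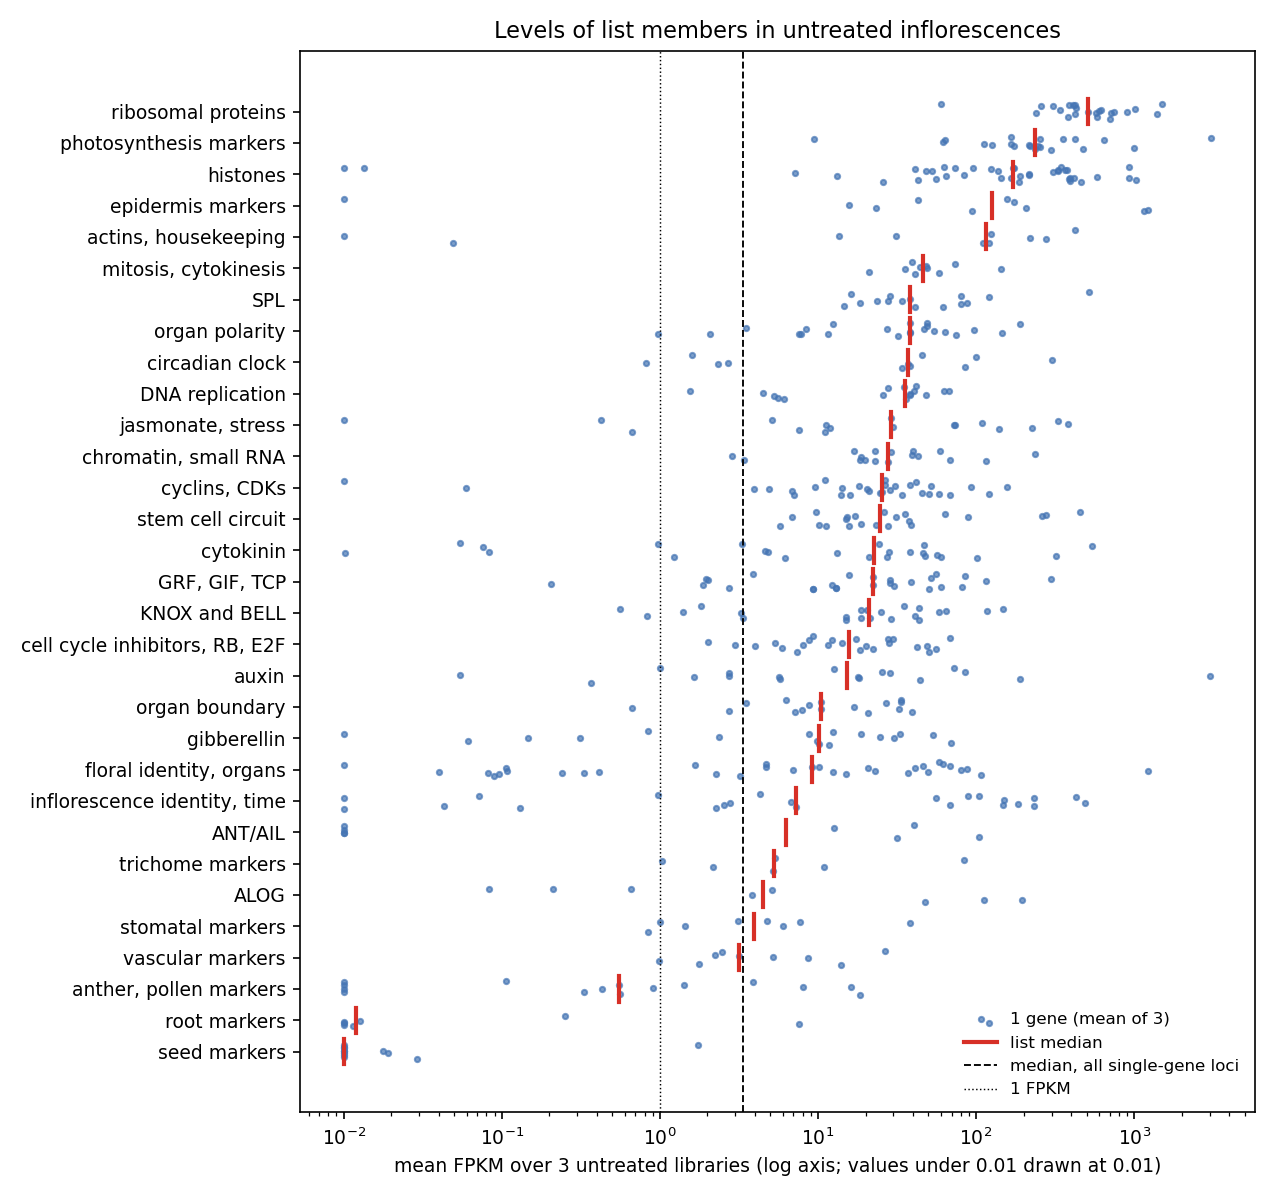
Mean FPKM over the 3 untreated libraries (log axis) of each member of 31 gene lists, with the list median as a red bar and the median of all single-gene loci (3.36 FPKM) as a dashed line. The chosen ribosomal protein genes have the highest median at 512 FPKM and seed markers the lowest.

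Families taken by the product text of the reference differed in how many members were expressed. All 15 tubulin genes, 57 of 59 photosystem and light-harvesting genes (96.6%), 30 of 32 proteasome subunits (93.8%) and 27 of 29 kinesins (93.1%) were expressed, against 65.3% of all protein-coding genes. Of 99 genes with ribosomal protein in small letters in this text, 88 were expressed (88.9%), and the median over all 99 was 100.3 FPKM. For histones 76 of 95 were expressed (80.0%), and the median over all 95 was 31.2 FPKM. Both medians lay below those of the chosen lists above. Pentatricopeptide repeat proteins, which act on organelle RNA, were expressed in 195 of 226 cases (86.3%) but at a low median of 4.71 FPKM. Among transcription factors, homeobox genes were expressed in 82 of 108 cases (75.9%), bHLH genes in 74 of 121 (61.2%), WRKY genes in 39 of 69 (56.5%), NAC genes in 53 of 103 (51.5%), MYB genes in 55 of 125 (44.0%) and MADS-box genes in 36 of 112 (32.1%). Of the MADS-box genes 45 were listed at 0, yet 5 had at least 100 FPKM in each library. Only 126 of 596 F-box genes (21.1%) and 7 of 179 defensin-like genes (3.91%) were expressed.

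The 15 single-gene loci of highest mean level were mostly not interpretable as levels, since 13 of them had half-widths outside 0.3 to 2 times FPKM. The first, DRH1, had 37758, 45829 and 53659.8 FPKM, AT5G18460 had 51335, 32799 and 40152 FPKM and TRM27 22214, 31442 and 43503 FPKM. BT2, AT1G04985, TIM17-3, AT5G52070, AT2G28060, UBP1B, BRXL4, AT5G17510, AT2G47250, PGL1, SUF4 and AT2G37690 followed, with means of 5569.6 to 10609 FPKM. TRM27 and UBP1B were those within the range. Among loci within it, a list made after seeing the data, TRM27 and UBP1B were followed by LTP6, a lipid transfer protein of cuticle-forming cells, at 4544, 4078 and 3509 FPKM, and the metallothionein MT2A at 3531, 4091 and 3303 FPKM. MT3, also a metallothionein, had 3666, 3696 and 2557 FPKM. AT5G39790 came next with 3049, 3200 and 3211 FPKM, then LCR69, a small cysteine-rich protein, with 2847, 3258 and 2506 FPKM. CRK8 had 2216.5, 2172 and 2081 FPKM, with a deposited lower bound of 0 in all 3 libraries. CCL had 1879.8, 2241 and 2112 FPKM and AT3G06700, a ribosomal protein gene, 1907.5, 1823 and 1509 FPKM. TCTP, a growth-related protein, had 1699, 1747 and 1518 FPKM. AP1 stood among the 30 highest loci of this kind, next to the ubiquitin fusion gene UBQ1 with 1280.0, 1189 and 1109 FPKM. The translation factor FBR12 lay further down with 1059.7, 1124 and 1029 FPKM. A half-width within the range does not secure a level. Of the expressed loci 253 had a deposited upper bound below the FPKM in a library, and 125 of these had half-widths outside the range.

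The 10 single-gene loci of highest CV at 10 FPKM or more all had half-widths outside that range. AT1G56520 had 0.839, 616 and 2.01 FPKM, RBOH F 7.46, 5.89 and 1869.9 FPKM and AT1G47278 54.3, 698 and 55.96 FPKM, and AT2G26200, BT1, GulLO6, AT1G27290 and AT3G62330 had CVs of 104% to 149%. Replicate 2 held the highest value for 5 of them, replicate 3 for 4 and replicate 1 for 1. Of 11660 single-gene loci with at least 10 FPKM, 85 had a CV above 50%, and 39 of them had such half-widths.

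Among the 13539 single-gene loci with at least 5 FPKM and half-widths within the range, 42 were at least 2-fold higher in replicate 3 than in both other libraries and 37 at least 2-fold lower. The same counts were 7 and 10 for replicate 1, and 6 and 0 for replicate 2. These loci were chosen by their values, so no test was made. The named examples were picked after their values were seen, and stress-related genes stood on both sides. Higher in replicate 3 was TCH4, a cell wall enzyme induced by touch, with 42.4, 51.7 and 126 FPKM. The same held for WRKY33 with 19.8, 19.8 and 49.8 FPKM, WRKY70 with 64.5, 63.5 and 181 FPKM and the sugar transporter ERD6 with 8.77, 6.73 and 33.1 FPKM. CYP707A3, which breaks down abscisic acid, had 2.702, 3.51 and 21.5 FPKM and the MADS-box gene AGL15 10.4, 7.16 and 30.4 FPKM. TCH3, a calmodulin-like protein, had 89.02, 66.9 and 171 FPKM and did not reach 2-fold over replicate 1.

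Of the loci lower in replicate 3, some named examples follow, picked after their values were seen. AOC2, an enzyme of jasmonate synthesis, had 109.7, 83.8 and 22.2 FPKM, and the terpene synthase TPS10 had 31.3, 17.6 and 4.18 FPKM. The terpene synthase TPS04 had 22.6, 16.1 and 4.57 FPKM, and TAT3, a jasmonate-induced aminotransferase, 25.5, 14.8 and 4.97 FPKM. In all 4 genes replicate 1 was also above replicate 2. The stress-related genes NAC019, with 39.7, 43.5 and 17.98 FPKM, and THI2.1, with 160.0, 129.9 and 52.5 FPKM, were lower in replicate 3 too. In the jasmonate and stress list, 14 of 17 members with a locus of their own were expressed, with a median CV of 22.1%. The repressor JAZ1 had 467, 342 and 332 FPKM. JAZ10 had 439, 311 and 235 FPKM and JAZ5 had 180.5, 125 and 112 FPKM. These repressors were highest in replicate 1 and lowest in replicate 3. LOX2, which starts jasmonate synthesis, had 269, 249 and 164 FPKM, whereas OPR3, a later enzyme of that pathway, was highest in replicate 3 with 72.1, 60.8 and 84.5 FPKM. ZAT10, a rapid stress gene, had 12.3, 11.7 and 11.6 FPKM. WRKY40, of the same kind, had 11.6, 10.7 and 11.2 FPKM, and PDF1.2 was listed at 0. The rough estimate of relative depth was lowest in replicate 1, and the part of depth in these differences was not tested.

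**Figure D4:**
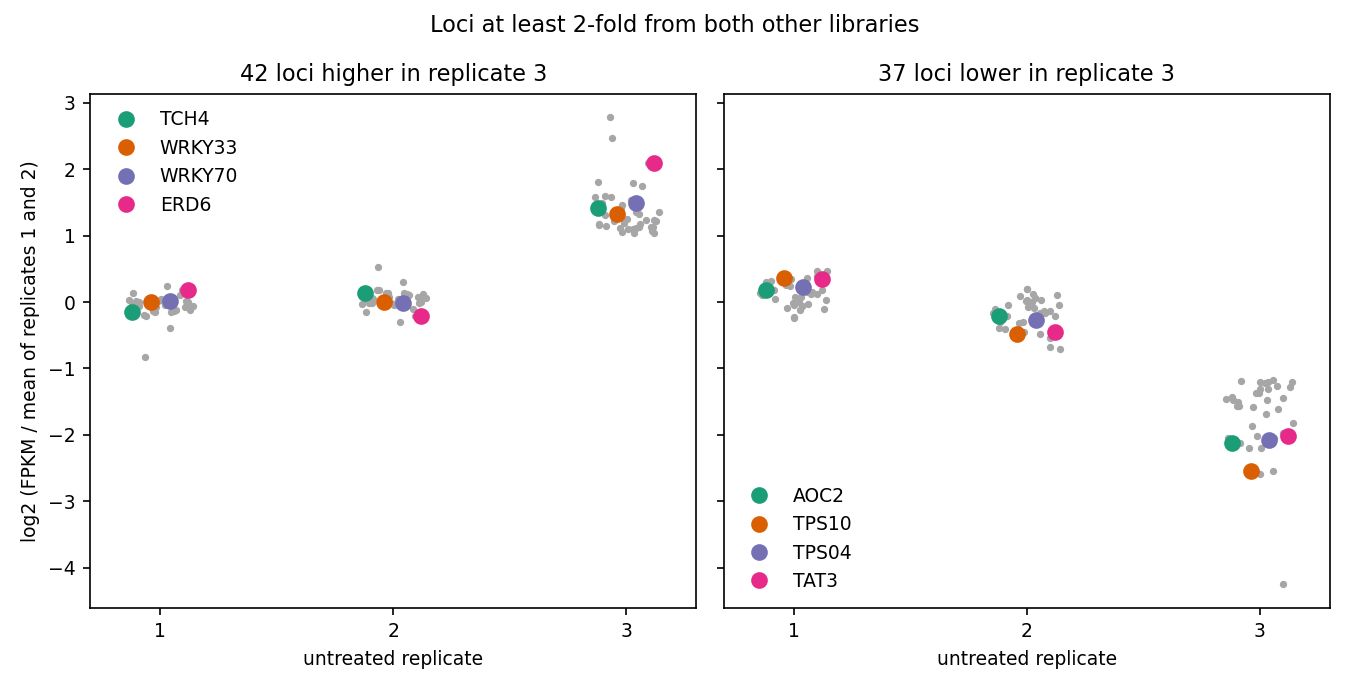
Log2 of FPKM over the mean of replicates 1 and 2 for the 42 loci at least 2-fold higher (left) and the 37 at least 2-fold lower (right) in untreated replicate 3 than in both other libraries, with 4 named genes coloured in each panel. Replicates 1 and 2 lie near 0 for most loci, and replicate 3 lies above 1 on the left and below -1 on the right, as the choice of loci fixes.

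To show where the untreated state differs from a treated one, the untreated libraries were compared with the 3 cycloheximide libraries. The labels record no treatment of the untreated plants, so the compound and any handling with it cannot be told apart. With limma on log2(FPKM + 1), 10595 of 18710 loci passed an adjusted p of 0.05 (56.6%), of which 5475 were higher (29.3% of those tested) and 5120 lower (27.4%) in untreated tissue. The median log2 difference, untreated minus cycloheximide, was 0.04 over all tested loci. The split of the calls depended on scaling. Of the calls 51.7% were higher in untreated tissue in this fit, and 58.8% after rescaling to the same median. Of the called loci 762 were higher and 2369 lower by at least 1 on the log2 scale.

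Replication, ribosomal protein, photosynthesis and epidermal genes were mostly higher in untreated tissue. All 15 tested replication genes were higher, with a median log2 difference of 1.11. PCNA2 had 50.3, 48.3 and 45.9 FPKM untreated and 13.9, 12.8 and 8.98 with cycloheximide, a log2 difference of 1.95 ± 0.14 (SE; limma, adjusted p = 6.81e-06). MCM2 had 35.1, 35.4 and 34.99 FPKM against 16.1, 17.5 and 14.5 (1.09 ± 0.08, limma, adjusted p = 6.40e-06). The groups of each gene did not overlap. All 23 ribosomal protein genes were higher, with a median of 0.85, among them RPL23AB with 405, 395 and 354 FPKM against 239, 218 and 200.5 (0.81 ± 0.10, limma, adjusted p = 2.26e-04). Of 21 photosynthesis genes 20 were higher (median 1.06), with LHCB3 at 251, 255 and 238 FPKM against 51.5, 54.6 and 46.9 (2.26 ± 0.09, limma, adjusted p = 2.63e-07), and 8 of 9 epidermal genes (median 0.62). Cyclins and CDKs were higher in 13 and lower in 3 of 29 cases. Histone genes were called in 13 of 38 cases, 5 higher and 8 lower, a share of 34.2% against 56.6% of all loci.

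The stem cell and SPL lists held calls in both directions. In the stem cell list 6 were higher and 6 lower of 22, a called share of 54.5%, near the 56.6% of all loci. CLV1 was lower, at 22.4, 23.5 and 24.3 FPKM against 33.6, 36.2 and 37.3 (-0.59 ± 0.07, limma, adjusted p = 1.33e-04). KNAT5 was lower in untreated tissue, with 25.4, 25.8 and 24.2 FPKM against 42.3, 40.7 and 40.98 (-0.696 ± 0.06, limma, adjusted p = 2.22e-05). SOC1 was higher, with 462, 419 and 398 FPKM against 243, 221 and 196 (0.95 ± 0.13, limma, adjusted p = 3.81e-04). Of 14 tested SPL genes 8 were higher and 4 lower, SPL15 being higher with 17.8, 19.3 and 18.5 FPKM against 7.401, 8.67 and 7.65 (1.14 ± 0.10, limma, adjusted p = 2.12e-05) and SPL1 lower with 61.9, 61.3 and 61.96 FPKM against 139, 169.9 and 175 (-1.36 ± 0.10, limma, adjusted p = 7.88e-06). All 3 called ALOG genes, of 5 tested, were higher, among them LSH4 with 51.2, 50.6 and 40.5 FPKM against 23.1, 21.1 and 20.09 (1.104 ± 0.11, limma, adjusted p = 5.70e-05). DRN was lower, with 11.3, 9.91 and 10.004 FPKM against 34.9, 32.7 and 33.97 (-1.61 ± 0.11, limma, adjusted p = 4.43e-06), and of the growth list GRF8 was lower with 3.098, 3.81 and 4.73 FPKM against 20.9, 17.4 and 21.1 (-2.102 ± 0.13, limma, adjusted p = 3.29e-06). In these pairs of values no library of one group reached the other group.

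Jasmonate and stress genes and gibberellin genes were mostly lower in untreated tissue, and cytokinin genes were more often called lower than higher. Of 14 tested jasmonate and stress genes 12 were lower and 0 higher, with a median log2 difference of -3.84. ZAT10 had 12.3, 11.7 and 11.6 FPKM untreated against 1458, 1959.6 and 2288 (-7.18 ± 0.17, limma, adjusted p = 3.25e-08) and WRKY40 11.6, 10.7 and 11.2 FPKM against 1094, 1615 and 1679.9 (-6.89 ± 0.18, limma, adjusted p = 4.52e-08). The inhibitor SMR5 had 3.73, 3.22 and 4.96 FPKM against 97.8, 137 and 172 (-4.76 ± 0.23, limma, adjusted p = 7.97e-07) and YUC1 2.57, 2.96 and 2.69 FPKM against 21.2, 19.4 and 21.4 (-2.53 ± 0.11, limma, adjusted p = 4.55e-07). Cytokinin genes were lower in 10 and higher in 4 of 22 cases, with ARR7 at 69.98, 55.7 and 55.01 FPKM against 199.8, 225 and 294 (-1.96 ± 0.16, limma, adjusted p = 1.37e-05), and gibberellin genes lower in 8 and higher in 2 of 14. Without untreated replicate 3 or without cycloheximide replicate 3, 2 cytokinin genes were higher, and without cycloheximide replicate 3, 1 gibberellin gene was higher. GI, a clock gene, was higher with 37.03, 41.2 and 33.3 FPKM against 6.23, 3.505 and 3.902 (2.81 ± 0.18, limma, adjusted p = 3.80e-06), as were 6 of 10 clock genes.

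**Figure D5:**
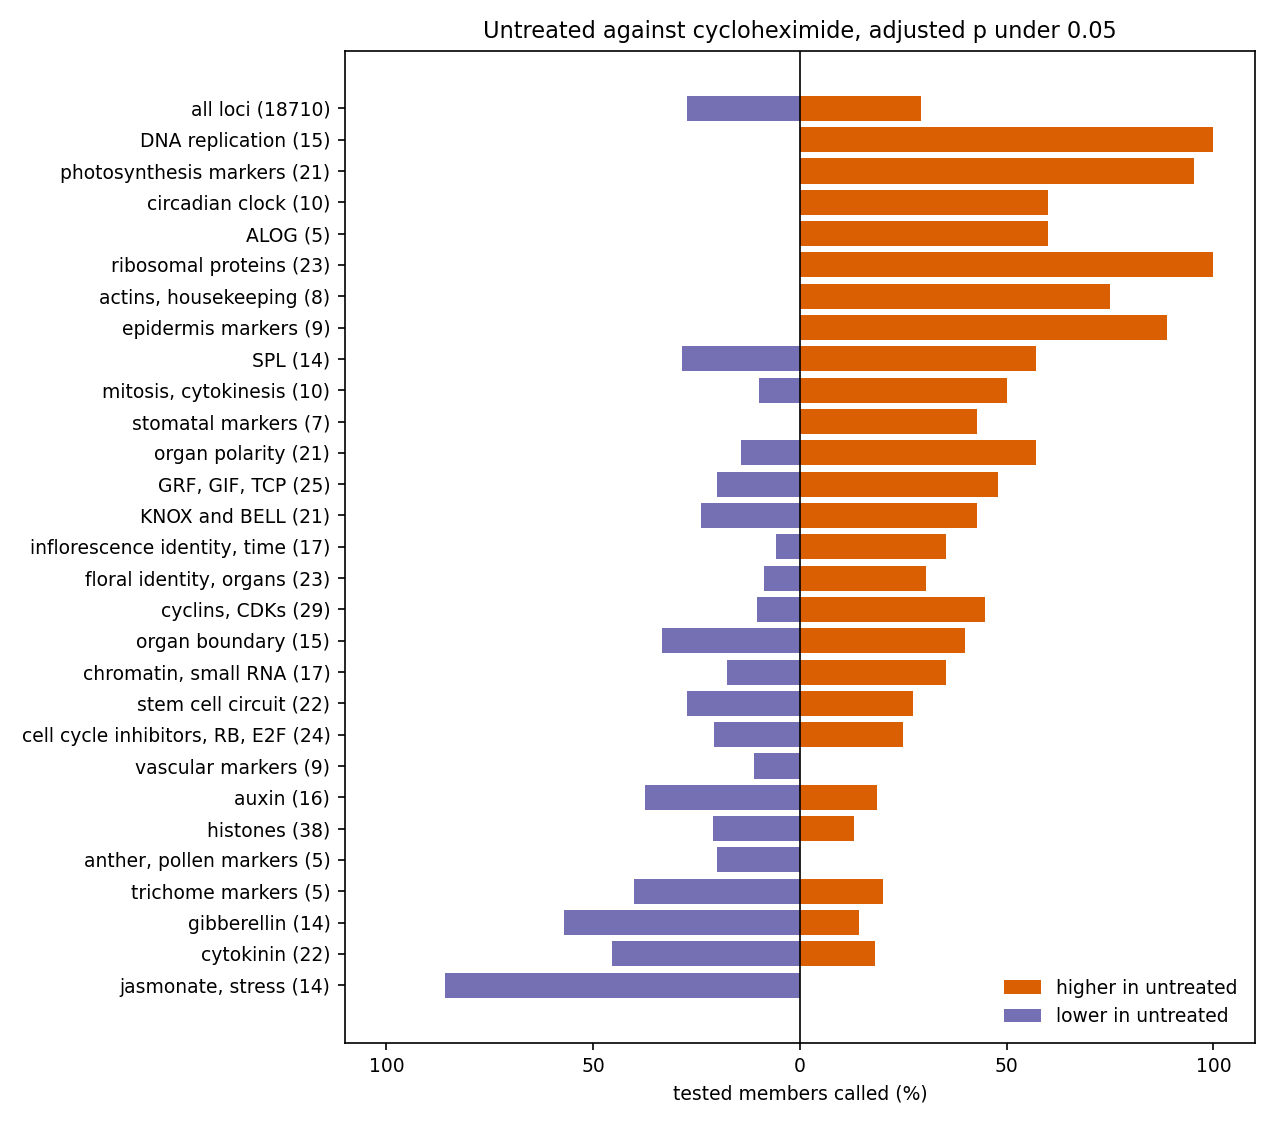
Share of tested members (%, number tested in brackets) called higher (orange, right) or lower (purple, left) in untreated than in cycloheximide libraries at an adjusted p under 0.05 (limma), for lists with at least 5 tested members and for all loci. Over all loci 29.3% were higher and 27.4% lower, while 15 of 15 replication genes were higher and 12 of 14 jasmonate and stress genes lower.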

How the data were processed

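RNA from inflorescences was sequenced in 9 libraries, 3 per group, per the labels. The submitters' processing notes name TopHat, Cufflinks and Cuffdiff with the build TAIR10, with no version stated. The FPKM values are the authors' own, deposited per locus, and the intervals around them are deposited bounds, treated as a signal on the FPKM scale. How the authors scaled the libraries to one another is not stated there. FPKM are not counts, so no count model was fitted. The library kit named by the labels keeps no strand, although the series' design calls the protocol strand-specific.

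From the deposited FPKM, means, SDs, CVs and ranks were computed over the 3 untreated libraries with Python 3.11.15, numpy 2.4.6 and pandas 2.3.3, and figures were drawn with matplotlib 3.10.9. Loci were matched to genes, product names and promoters by gene ID with RefSeq annotation of TAIR10.1. Untreated and cycloheximide libraries were compared with limma 3.58.1 (R 4.3.3, trend fit over all 9 libraries) on log2(FPKM + 1), with Benjamini-Hochberg adjustment over 18710 loci with status OK in, and a mean of at least 1 FPKM over, the 9 libraries. A fold change on this scale understates the change of low genes. The fit was also run on simulated data, with independent libraries and few changed loci. The data described here had many calls and correlated deviations between same-numbered treated libraries, so that run cannot judge the calls. Replicate numbers were not taken as pairs of untreated and cycloheximide libraries, and the main fit held no replicate block. The members and gene lists were chosen with earlier results of these data known. Named were AP1, CAL, the 15 highest loci, in each list up to 6 of the highest and 3 of the lowest members, the 10 loci of highest CV, and up to 2 called members of smallest p per list. Further members were named for their known role after their values were seen. A member of the auxin list is not reported here by name.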

Additional observations from a re-analysis of the deposited data

How the results depend on the processing

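Alternatives covered the level, length and interval limits, rescaling, the pseudocount, the libraries fitted and each library left out. The number of expressed loci ranged from 14520 to 18458 over all alternatives, and from 17653 to 17777 with 1 untreated library left out. The median CV ranged from 5.05% to 8.38% with 1 library left out, and the lowest value was that without replicate 3. The number of loci called between untreated and cycloheximide libraries ranged from 8728 to 10823 with 1 library left out. It was 11276 after rescaling to the same median and 9218 at a mean of at least 5 FPKM. The replicate block gave 11477 calls. Over all alternatives, 4278 to 6635 loci were called higher and 4325 to 5410 lower in untreated tissue. Correlations between same-numbered libraries of both groups were 0.0998, -0.0687 and 0.188, so the numbers were not taken as pairs. Between same-numbered libraries of the cycloheximide group and the group with dexamethasone they were 0.477, 0.215 and 0.359. In 6 of 807 repeats a gene's difference lost its call. These were BGLU23 without untreated replicate 1, SUC2 without either replicate 3, and TTG1 after rescaling, without untreated replicate 1 and without cycloheximide replicate 2. No repeat reversed a direction. Absolute depth is unknown, so no counting interval was given, and the cause of these shifts was not tested.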
